A study of Mus musculus with 2 samples.

Results

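Oxidative phosphorylation genes encode the respiratory chain of mitochondria and its ATP synthase. Members were all genes of the count table whose symbols start with mt-, Nduf followed by a, b, c, s or v, Uqcr, Cox followed by 4 to 8, or Atp5, together with Sdha, Sdhb, Sdhc and Sdhd. That gave 99 of 11971 genes, of which 13 are encoded by the mitochondrial genome and 86 by nuclear chromosomes. By function, 89 encode subunits, 8 are assembly factors of complex I (the Ndufaf genes), 1 encodes a supercomplex factor (Cox7a2l) and 1, Atp5s, is no subunit of the ATP synthase.

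In the respiratory chain, complexes I and II pass electrons from NADH and succinate to ubiquinone, complex III passes them on to cytochrome c, and complex IV (cytochrome c oxidase) passes them to oxygen. Complexes I, III and IV pump protons across the inner membrane, and complex V (ATP synthase) makes ATP from their return flow. Complex II is wholly nuclear-encoded, and the other complexes are built from subunits of both genomes, whose transcripts are made and turned over by separate machinery. T cells raise their use of this pathway and of glycolysis when they are activated.

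The cells were colonic CD4 T cells from a transfer model of colitis, in which Rag-/- mice, which make no mature lymphocytes of their own, receive donor T cells. KO mice were Rag-/- recipients of BCL-6 deficient CD4+ T cells, and WT mice were Rag-/- recipients of naive CD4+ CD45RBhigh CD25- T cells, with 6 recipients of each in the deposited annotation. How BCL-6 was deleted, the number of donors, the age of the mice and the time after transfer are not given in the labels. The naive CD45RBhigh CD25- sort is named for WT mice only, so by the labels it cannot be told apart from BCL-6 loss. Genotype here means the KO or WT label. Cells positive for TCRb and CD4 were sorted, each mouse was marked by its own hashtag antibody, and the 12 mice went into 1 pooled gene expression library of 10x Genomics 5′ chemistry. A unique molecular identifier (UMI) counts 1 captured transcript molecule once, whatever its length, so levels are given as CPM, UMIs scaled to the same total in each mouse, and can also be set side by side between genes, as far as transcripts are captured alike.

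The table held 9708 cells of KO mice and 9152 cells of WT mice, with 4252124 to 5523025 UMIs per mouse. All 7 T cell markers were in the table, with summed levels of 4521 to 5271 CPM in KO mice and 4233 to 4792 CPM in WT mice. Summed CD8 markers stood at 4.06 to 10.0 CPM in KO mice and 11.3 to 56.2 CPM in WT mice, and the only natural killer marker of 3 in the table at 0.428 to 2.74 CPM in KO mice and 2.26 to 6.25 CPM in WT mice. The 3 B and plasma cell markers in the table summed to 12.2 to 26.7 CPM in KO mice and 22.3 to 38.9 CPM in WT mice. Sums of 5 of 7 myeloid markers were 10.3 to 18.9 CPM in KO mice and 9.89 to 17.1 CPM in WT mice, and those of all 6 epithelial markers 11.9 to 29.6 CPM in KO mice and 15.2 to 28.2 CPM in WT mice. The only one of 4 stromal and vessel markers in the table had 36.1 to 51.4 CPM in KO mice and 29.0 to 55.2 CPM in WT mice. Bcl6 stood at 65.8 to 91.3 CPM in KO mice and 48.4 to 69.6 CPM in WT mice; a 5′ tag need not lie in the deleted stretch and so checks nothing, and every direction given here rests on the labels. Cells of KO mice were shallower, with mouse medians of 2630 ± 244 UMIs per cell against 2945 ± 88.3 in WT mice (SD, n = 6 each, exact permutation test, two-sided p = 0.0260). Clusters 1 and 3, to which the authors' annotation gives no subtype, made up 28.1% to 76.7% of the cells of KO mice and 12.7% to 19.4% of those of WT mice. Mitochondrial UMIs exceeded 2% in 1.23% of the cells of KO mice and 1.52% of those of WT mice and reached 3% in none, so cells with higher shares are not analysed here.

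The 3 core subunits of cytochrome c oxidase that the mitochondrial genome encodes were lower in KO mice, and so was mt-Atp8, a subunit of ATP synthase. In mt-Co1, which encodes the catalytic subunit of complex IV, the lowest, median and highest KO mouse had 2295, 2341 and 2382 CPM, against 2558, 2719 and 2882 CPM in WT mice. Every KO mouse lay below every WT mouse, and the log2 fold change of KO over WT was -0.26 ± 0.03 (SE; adjusted p = 8.46e-05). In mt-Co3, another core subunit, levels were 1496, 1513 and 1573 CPM in KO mice and 1683, 1744 and 1777 CPM in WT mice (log2 fold change -0.23 ± 0.03, adjusted p = 1.21e-04). In mt-Co2, which takes electrons from cytochrome c, levels were 1252, 1284 and 1338 CPM in KO mice and 1409, 1465 and 1546 CPM in WT mice (log2 fold change -0.22 ± 0.03, adjusted p = 4.78e-04). The genotypes overlapped in neither gene. mt-Atp8, a membrane subunit of ATP synthase, had 387.5, 395.7 and 420.6 CPM in KO mice and 426.3, 437.0 and 451.2 CPM in WT mice, again without overlap (log2 fold change -0.17 ± 0.04, adjusted p = 0.00702). Adjusted p-values are from edgeR's quasi-likelihood test with Benjamini-Hochberg adjustment over all genes tested, and a gene is called where its adjusted p is under 0.05. Fold changes use TMM scaling, which CPM values do not, so a fold change can depart slightly from the ratio of the CPM values.

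**Figure D1:**
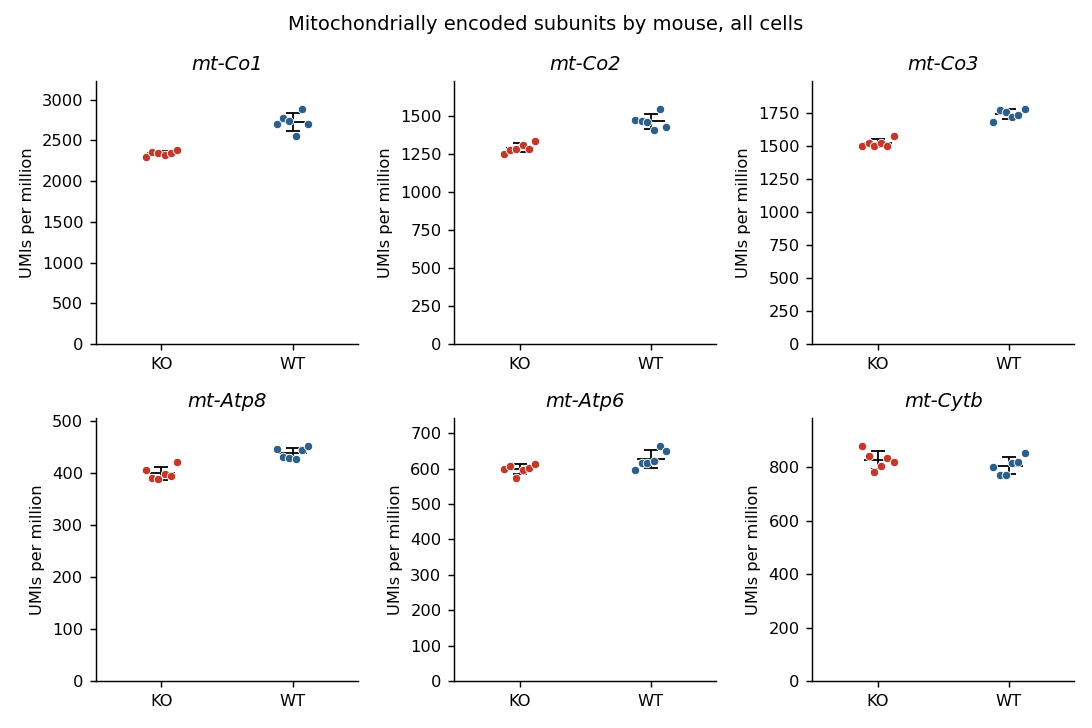
CPM of 6 mitochondrially encoded genes summed over all cells, 1 point per mouse, with KO mice on the left and WT mice on the right of each panel; the line and bars are the mean and SD of 6 mice. In mt-Co1, mt-Co2, mt-Co3 and mt-Atp8 every KO mouse lies below every WT mouse, while in mt-Atp6 and mt-Cytb the genotypes overlap.

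Of all 13 mitochondrially encoded genes, 4 were called lower, which is 30.8%, against 7.21% of the 9861 genes tested over all cells. None was called higher by edgeR or DESeq2, against 7.04% of all genes tested called higher by edgeR. At an unadjusted p under 0.05, 0 were higher and 7 lower, against 1384 and 1378 of the 9861 genes. The median log2 fold change was -0.11 over these 13 genes and 0.00 over all genes tested. The 4 genes called lower were also the 4 whose genotypes did not overlap, and 2.35% of all genes tested were lower in KO mice without overlap. Sums over all cells of a mouse cannot tell fewer cells of a type from less RNA per cell.

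Both subunits that ATP synthase draws from the mitochondrial genome had values below 0. mt-Atp6, which forms part of its proton channel, had 573.7, 599.6 and 612.2 CPM in KO mice and 596.0, 618.3 and 664.0 CPM in WT mice, with overlap, and did not pass (log2 fold change -0.11 ± 0.04, adjusted p = 0.0703). DESeq2 did call it lower (adjusted p = 0.0205). Its reading frame shares 43 bases with that of mt-Atp8, and the sources used here do not say how reads were divided between overlapping genes.

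None of the 7 complex I subunits of the mitochondrial genome was called over all cells by edgeR or DESeq2, and 2 had an unadjusted p under 0.05. These were mt-Nd5 (log2 fold change -0.12 ± 0.04, adjusted p = 0.0809), a proton-pumping subunit, and mt-Nd6 (-0.20 ± 0.07, adjusted p = 0.0834), the only gene of the 13 on the minus strand. mt-Nd1 had a log2 fold change of -0.09 ± 0.06 and mt-Nd4 one of -0.02 ± 0.05. For mt-Nd2, mt-Nd3 and mt-Nd4l the log2 fold changes were 0.05 ± 0.07, 0.10 ± 0.09 and 0.01 ± 0.05. The genotypes overlapped in every one of the 7. KO mice 1 and 2 had the highest values of all 12 mice in mt-Nd1, mt-Nd2, mt-Nd3 and mt-Nd4l, with 459.3 and 453.7 CPM of mt-Nd1 against 363.9 to 402.8 CPM in the other KO mice. Without both, mt-Nd1 was called lower (log2 fold change -0.18, adjusted p = 0.0412). In mt-Cytb, the only mitochondrially encoded subunit of complex III, levels were 781.1, 826.5 and 880.3 CPM in KO mice and 771.4, 807.5 and 853.3 CPM in WT mice, and the log2 fold change was 0.00 ± 0.04.

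Within the mitochondrial transcripts, the balance differed between the genotypes. The summed UMIs of mt-Co1, mt-Co2 and mt-Co3 were 1.43 to 1.63 times those of the other 10 genes in KO mice and 1.69 to 1.84 times in WT mice, without overlap. Such a ratio uses no nuclear gene and no scaling to the total of a mouse. Its numerator holds genes already called lower from the same UMIs, so it restates those calls and adds no separate support. Relative to mt-Cytb, mt-Co1 had 2.61 to 2.99 UMIs in KO mice and 3.14 to 3.59 in WT mice. For mt-Co3 the same ratio was 1.70 to 1.92 in KO mice and 2.08 to 2.30 in WT mice. For mt-Co2 the genotypes lay closer, with 1.42 to 1.64 in KO mice and 1.68 to 1.90 in WT mice.

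On the mitochondrial chromosome (GRCm38, GENCODE vM21) the called genes lie close together. mt-Co1 spans chrM:5328-6872, mt-Co2 chrM:7013-7696, mt-Atp8 chrM:7766-7969, mt-Atp6 chrM:7927-8607 and mt-Co3 chrM:8607-9390, all on the plus strand. These are genes 3 to 7 of 13 in genome order, with mt-Nd1 and mt-Nd2 before them and mt-Nd3 to mt-Cytb after them. Within this run mt-Atp6 was not called by edgeR. Since 5′ chemistry reads from the start of a transcript, the first 60 bases of the 3 oxidase genes and of mt-Cytb (chrM:14145-15288), the most abundant of the 9 genes that were not called, are shown from GENCODE transcripts with the start codon in capitals.
mt-Co1: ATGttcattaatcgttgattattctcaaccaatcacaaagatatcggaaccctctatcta
mt-Co2: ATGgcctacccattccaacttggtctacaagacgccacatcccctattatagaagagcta
mt-Co3: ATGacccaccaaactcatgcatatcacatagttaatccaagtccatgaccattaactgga
mt-Cytb: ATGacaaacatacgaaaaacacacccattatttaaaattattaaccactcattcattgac

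Nuclear pseudogenes resemble some of these genes, which makes the counts uncertain. At 95% identity or more over 200 bases or more, GENCODE transcripts held copies of mt-Co1, mt-Co2 and mt-Co3, among them Gm28437, which matched 783 bases of mt-Co3 at 100% identity. They also held copies of mt-Atp6, mt-Nd2, mt-Nd3, mt-Nd4, mt-Nd4l and mt-Nd5, none of which edgeR called. mt-Atp8 and mt-Cytb had no such copy, but mt-Atp8 has only 204 bases, near the minimum of 200. Stretches outside GENCODE transcripts were not searched, so neither gene is shown to lack a nuclear copy. None of the copies was a gene of the count table, and their part in the result was not tested.

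**Figure D2:**
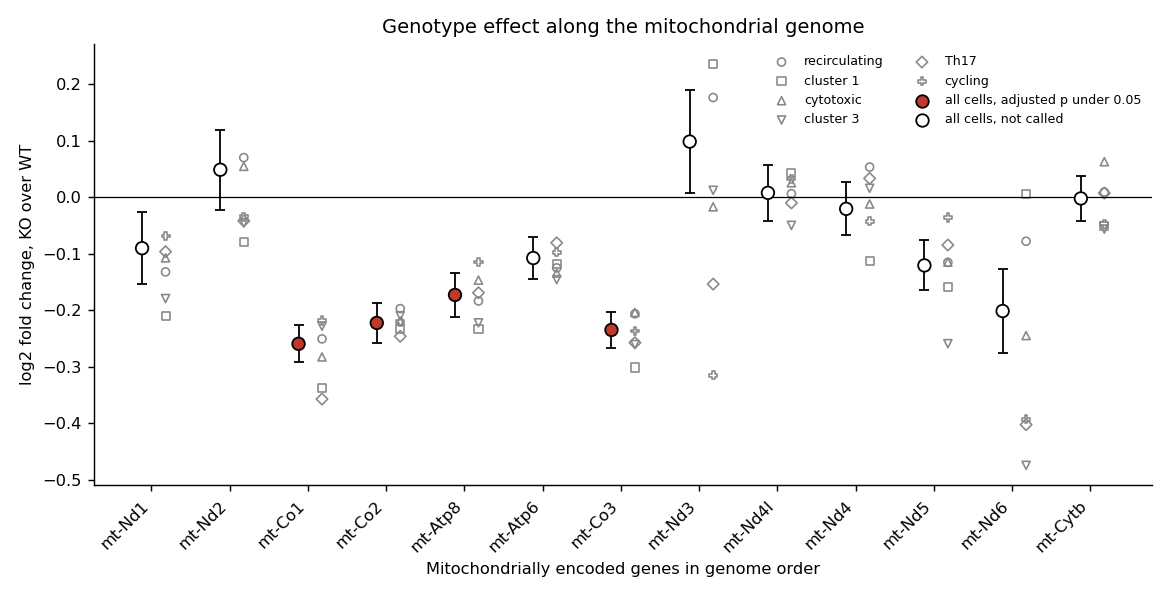
Log2 fold change of KO over WT for the 13 mitochondrially encoded genes in genome order. Large circles with SE bars are the fit over all cells, filled red where the adjusted p is under 0.05; small grey symbols are the fits within 6 clusters. mt-Co1, mt-Co2, mt-Co3 and mt-Atp8 lie between -0.17 and -0.26 over all cells, and mt-Cytb at 0.00.

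Each of mt-Co1, mt-Co2, mt-Co3 and mt-Atp8 stayed called lower in all 22 alternative fits over all cells, which changed the scaling, the test, the filter, the depth, the cluster make-up or the mice. The log2 fold change of mt-Co1 ranged from -0.28 to -0.25 and its highest adjusted p was 9.42e-04, and for mt-Atp8 the highest adjusted p was 0.0303. With 1500 UMIs drawn from each cell, and 491 shallower cells of KO mice and 407 of WT mice dropped, the mitochondrial share was 0.834% to 0.860% in KO mice and 0.910% to 0.978% in WT mice. Malat1, a nuclear RNA, had 4432 to 5821 CPM in KO mice and 4277 to 4720 CPM in WT mice and was not called (adjusted p = 0.0585). Neat1, another nuclear RNA, was lower in KO mice (42.8 to 49.2 CPM, against 56.4 to 72.9 CPM in WT mice, adjusted p = 9.89e-05). The part of these 2 RNAs in the result was not tested.

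Of 84 nuclear-encoded members tested, 3 were called higher and 3 lower, 3.57% in each direction, against 7.04% and 7.21% of all genes tested. At an unadjusted p under 0.05 there were 3 higher and 14 lower, against 1384 and 1378 of all 9861 genes tested. The median log2 fold change of the nuclear members was -0.05, and 61 of the 84 had values below 0 with TMM scaling. By mean CPM, without that scaling, 47 of the 84 were lower in KO mice, against 4062 of all 9861 genes tested, and 8 of the 13 mitochondrially encoded genes were. Cox6b2 and Cox7a1 did not pass the filter on low counts, with 43 and 18 UMIs in all KO mice and 13 and 14 in all WT mice. By complex, the median log2 fold change of nuclear subunits was -0.07 for 36 subunits of complex I, -0.05 for 4 of complex II, -0.03 for 8 of complex III, -0.07 for 11 of complex IV and -0.05 for 15 of complex V. Among the members, no nuclear subunit of complexes II and V was called over all cells by edgeR. Of these, 1 and 0 had an unadjusted p under 0.05.

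**Figure D3:**
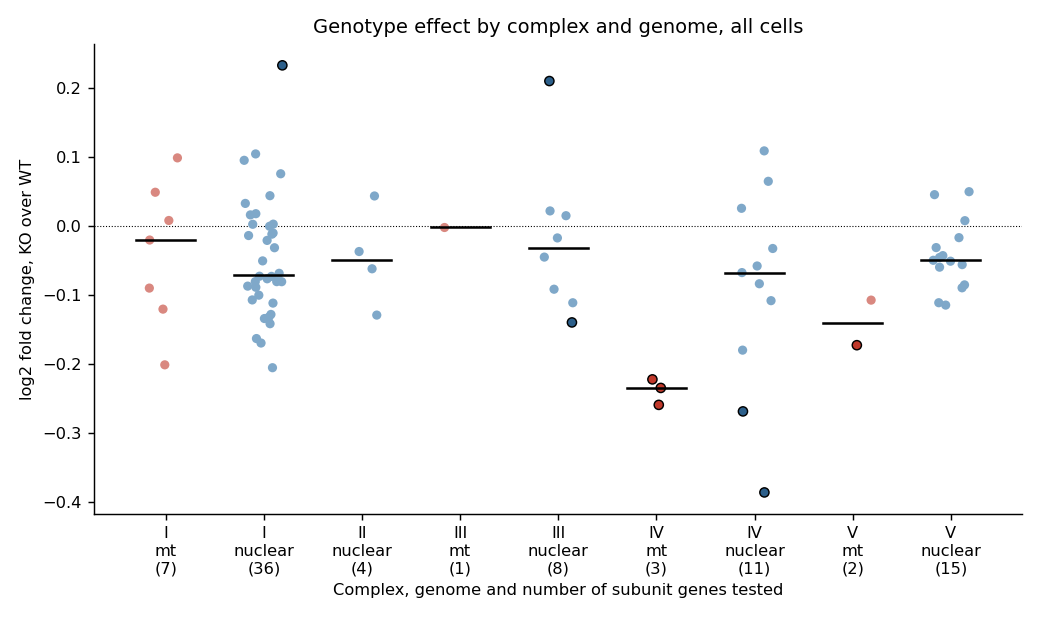
Log2 fold change of KO over WT for each subunit gene tested over all cells, by complex and by the genome that encodes it; the number of genes is in parentheses, the black line is the median, and outlined dark points have an adjusted p under 0.05. The 3 mitochondrially encoded complex IV subunits lie together between -0.26 and -0.22, while the nuclear complex IV subunits spread from -0.39 to 0.11.

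Among nuclear subunits of complex IV, Ndufa4 and Cox5a were lower in KO mice. Ndufa4 (chr6:11900292-11907497, minus strand), named for complex I but found in complex IV, had 153.4, 161.7 and 203.9 CPM in KO mice and 192.9, 216.6 and 234.5 CPM in WT mice. Only KO mouse 6 reached the range of the WT mice, and the log2 fold change was -0.39 ± 0.07 (adjusted p = 0.00157). Ndufa4 stayed called in all 22 alternative fits, with log2 fold changes of -0.49 to -0.23. Cox5a (chr9:57521274-57532426, plus strand), a subunit that borders the mitochondrially encoded core, had 451.3, 531.4 and 639.0 CPM in KO mice and 560.8, 639.0 and 664.3 CPM in WT mice (log2 fold change -0.27 ± 0.07, adjusted p = 0.0201). KO mice 4 and 6 lay above WT mouse 6, the lowest WT mouse. Without KO mouse 1 or WT mouse 1 the call on Cox5a was lost (adjusted p = 0.0504 and 0.0507), and also with thinned cells (0.0548) and without KO mice 1 and 2 (0.104).

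The other nuclear subunits of complex IV did not pass. Cox4i1, the most abundant nuclear subunit of the complex, had 900.5, 976.3 and 1110 CPM in KO mice and 1025, 1039 and 1069 CPM in WT mice, so that KO mice lay on both sides of the WT range (log2 fold change -0.11 ± 0.05, adjusted p = 0.149). Cox5b, which binds zinc at the matrix face, had a log2 fold change of -0.18 ± 0.07 (adjusted p = 0.0932). Cox8a had one of -0.08 ± 0.05, and Cox6a1 and Cox7a2, the forms found outside muscle, had 0.11 ± 0.05 and 0.06 ± 0.06. Cox7a2l, which joins complexes III and IV into supercomplexes, had a log2 fold change of -0.10 ± 0.05 (adjusted p = 0.187).

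In complex III, 2 small subunits were called in opposite directions. Uqcrh (chr4:116066965-116075071, minus strand), the hinge subunit next to cytochrome c1, had 723.9, 781.9 and 832.0 CPM in KO mice and 829.3, 839.3 and 846.6 CPM in WT mice, and only KO mouse 6 reached the WT range (log2 fold change -0.14 ± 0.04, adjusted p = 0.0254). Uqcrb (chr13:66900617-66905378, minus strand), a ubiquinone-binding subunit, had 158.3, 173.5 and 181.4 CPM in KO mice and 128.7, 145.5 and 158.2 CPM in WT mice (log2 fold change 0.21 ± 0.06, adjusted p = 0.0230). The lowest KO mouse and the highest WT mouse nearly met, and Uqcrb was the only nuclear member without overlap, against 4.41% of all genes tested that were higher in KO mice without overlap. With the same cluster weights in every mouse, namely the cluster shares of all cells together, neither was called (adjusted p = 0.0836 for Uqcrh and 0.126 for Uqcrb). Nor was either called with thinned cells (0.0592 and 0.0564) or without KO mice 1 and 2 (0.153 and 0.101). Without cells holding markers of other types Uqcrb was not called (adjusted p = 0.0768). Leaving out 1 mouse ended the call on Uqcrh for KO mice 1, 2 and 5 and WT mice 1 and 2 (adjusted p up to 0.0665), and on Uqcrb for KO mouse 1 and WT mice 2 and 3 (up to 0.0572).

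In complex I, Ndufa9 and Ndufaf8 were higher in KO mice. Ndufa9 (chr6:126821721-126849136, minus strand), an accessory subunit, had 58.6, 62.2 and 69.4 CPM in KO mice and 45.8, 51.3 and 59.6 CPM in WT mice (log2 fold change 0.23 ± 0.07, adjusted p = 0.0249). KO mice 3 and 6 reached the WT range, and leaving out KO mouse 2 or WT mouse 2, 4 or 6 ended the call (adjusted p up to 0.0578). Ndufaf8 (chr11:120098928-120100705, plus strand), an assembly factor of complex I, had 36.6, 43.6 and 48.2 CPM in KO mice and 30.6, 35.0 and 37.5 CPM in WT mice (log2 fold change 0.28 ± 0.07, adjusted p = 0.0187). KO mouse 6, the lowest KO mouse, was the only one within the WT range. Neither gene was called with thinned cells (adjusted p = 0.150 for Ndufa9 and 0.179 for Ndufaf8). The same held with the same cluster weights in every mouse (0.163 and 0.249) and without KO mice 1 and 2 (0.113 and 0.0853). Ndufa6, the most abundant nuclear subunit of complex I, had 339.1, 356.4 and 378.3 CPM in KO mice and 358.6, 389.7 and 402.4 CPM in WT mice and did not pass with edgeR (log2 fold change -0.14 ± 0.05, adjusted p = 0.0514), although DESeq2 called it lower (adjusted p = 0.0233).

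**Figure D4:**
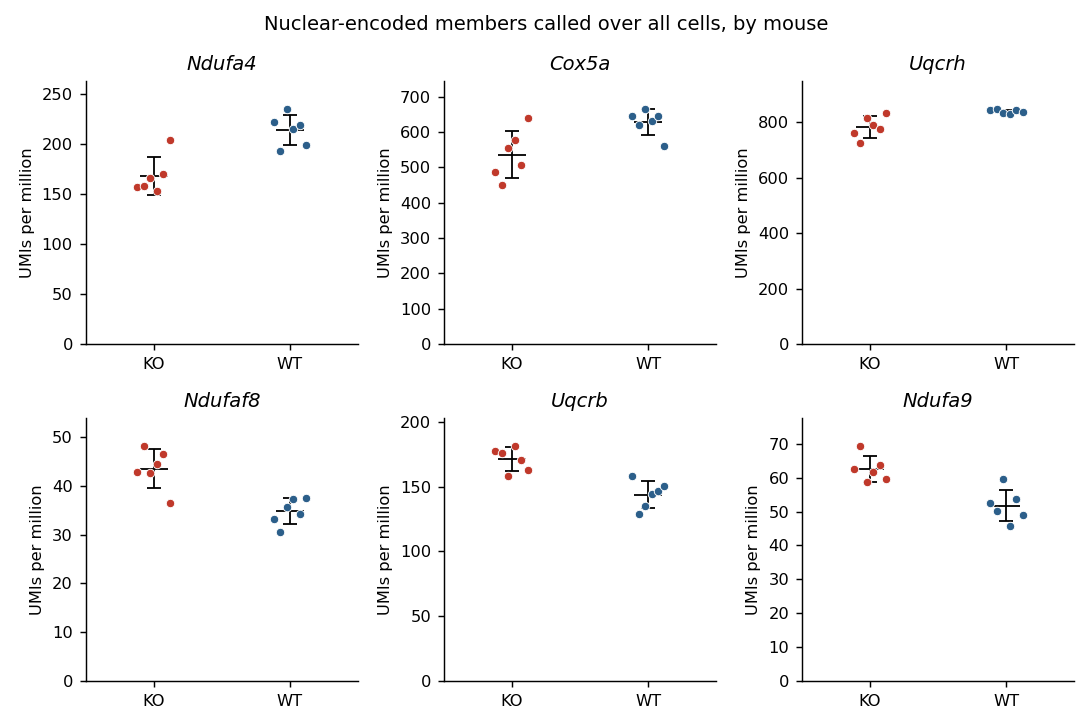
CPM of the 6 nuclear-encoded members called over all cells, 1 point per mouse, with KO mice on the left and WT mice on the right; the line and bars are the mean and SD of 6 mice. Ndufa4, Cox5a and Uqcrh were lower and Ndufaf8, Uqcrb and Ndufa9 higher in KO mice, and in all of them but Uqcrb at least 1 KO mouse lies within the WT range.

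The count of nuclear calls changed when mice were left out and when every mouse was given the same cluster weights. The cause of these changes was not tested. Without KO mouse 6, the KO mouse with the largest share of recirculating cells, 12 of 84 nuclear members were called lower (14.3%), against 9.36% of all genes tested in that fit. Without KO mouse 1, WT mouse 1 and WT mouse 4 the count was 1, 1 and 5, against 5.51%, 5.59% and 5.94% of all genes tested. Without WT mouse 2 only 1 was called higher, against 5.94%. With the same cluster weights in every mouse, 0 were called higher and 3 lower, against 4.45% and 5.29% of all genes tested that way. At an unadjusted p under 0.05 there were 5 and 7, with no count over all genes to set beside them. The median log2 fold change of the nuclear members was 0.00. Without KO mice 1 and 2, which had the smallest shares of recirculating cells (8.86% and 6.83%), 0 were called higher and 1 lower, against 3.77% and 3.93% of all genes tested.

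In complexes II and V no nuclear member was called over all cells by edgeR. Sdhb, the iron-sulfur subunit of complex II and its most abundant, had 142.0, 149.2 and 178.2 CPM in KO mice and 145.5, 158.7 and 162.9 CPM in WT mice (log2 fold change -0.04 ± 0.06). Sdha, its flavoprotein, had 106.2, 107.7 and 112.5 CPM in KO mice and 111.8, 113.9 and 121.0 CPM in WT mice, and only KO mouse 5 reached the WT range (log2 fold change -0.13 ± 0.04, adjusted p = 0.0510). Atp5h, the most abundant nuclear subunit of ATP synthase and part of its stalk, had 741.0, 767.5 and 837.1 CPM in KO mice and 758.8, 794.0 and 818.1 CPM in WT mice (log2 fold change -0.05 ± 0.04). Atp5g1, Atp5g2 and Atp5g3 encode the same mature c subunit of the rotor from separate genes and had log2 fold changes of -0.04 ± 0.05, -0.09 ± 0.04 and -0.06 ± 0.05. Atp5o.1 (log2 fold change -0.02 ± 0.05), which the table names with a suffix, is uncertain because GENCODE holds 2 overlapping genes named Atp5o, 1 of which spans Itsn1 on the other strand.

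Summed by genome of origin, the 13 mitochondrially encoded genes took 0.831%, 0.848% and 0.859% of UMIs in the lowest, median and highest KO mouse and 0.903%, 0.926% and 0.956% in WT mice. The genotypes did not overlap, but the sum includes mt-Co1, mt-Co2, mt-Co3 and mt-Atp8, which were already called lower. The 86 nuclear members took 1.82%, 1.93% and 2.14% in KO mice and 1.94%, 2.01% and 2.05% in WT mice, where KO mice lay on both sides of the WT range. In parts per 10000 UMIs, mitochondrially encoded complex IV subunits took 50.4 to 52.9 in KO mice and 56.9 to 61.6 in WT mice. Those of complex V took 9.61 to 10.3 in KO mice and 10.4 to 11.1 in WT mice. The complex IV sum holds only mt-Co1, mt-Co2 and mt-Co3, and the complex V sum includes mt-Atp8. Their lack of overlap thus restates those calls and adds no separate support. Mitochondrially encoded complex I subunits took 13.9 to 16.3 in KO mice and 14.5 to 15.5 in WT mice, with overlap. Nuclear subunits of complex IV took 46.4 to 57.3 in KO mice and 51.2 to 55.1 in WT mice, also with overlap.

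Within the clusters of the authors' annotation, mt-Co1, mt-Co2 and mt-Co3 were each called lower in KO mice in 6 of 7, and no other mitochondrially encoded gene was called in any cluster. In recirculating cells mt-Co1 had 2371, 2491 and 2530 CPM in KO mice and 2696, 2792 and 2987 CPM in WT mice (log2 fold change -0.25 ± 0.04, adjusted p = 7.82e-05). In Th17 cells it had 1999, 2192 and 2416 CPM in KO mice and 2544, 2705 and 3040 CPM in WT mice (-0.36 ± 0.06, adjusted p = 5.19e-04). In cycling cells the levels were 2089, 2139 and 2251 CPM in KO mice and 2263, 2416 and 2572 CPM in WT mice (-0.22 ± 0.04, adjusted p = 0.00208). The genotypes overlapped in none of these 3 clusters, nor in cluster 1 and cytotoxic cells, where the log2 fold changes of mt-Co1 were -0.34 ± 0.05 and -0.28 ± 0.06. In cluster 3 they overlapped, since WT mouse 4 had 2431 CPM, against 2401, 2461 and 2513 CPM in KO mice (-0.23 ± 0.05, adjusted p = 0.00310). How many of all genes tested lacked overlap within a cluster was not counted. The call on mt-Co1 was kept in all 16 alternative fits in each of these 6 clusters. That on mt-Co2 was lost in 13 of 16 in cytotoxic cells, 13 in cluster 3, 8 in Th17 cells, 4 in cluster 1, 1 in cycling cells and 0 in recirculating cells. That on mt-Co3 was lost in 12 of 16 in cytotoxic cells, 2 in cycling cells and 0 in the other 4 clusters.

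Among 96 members tested in recirculating cells, 4 higher and 12 lower had an unadjusted p under 0.05, against 601 and 650 of 7596 genes tested. Of the members, 0 were called higher and 4 lower, against 2.17% and 3.30% of all genes tested there. The fourth was Uqcrh, with 805.6, 829.5 and 876.4 CPM in KO mice and 885.3, 894.0 and 901.1 CPM in WT mice (log2 fold change -0.16 ± 0.04, adjusted p = 0.0319), a call lost in 11 of 16 alternative fits. In cluster 1, 2 higher and 9 lower of 91 had an unadjusted p under 0.05, against 420 and 529 of 5933 genes tested. Called were 0 higher and 5 lower, against 1.75% and 2.90%. Besides the 3 oxidase genes these were Cox5a (427.8, 498.9 and 586.9 CPM in KO mice and 489.8, 612.0 and 698.7 CPM in WT mice, log2 fold change -0.32 ± 0.09, adjusted p = 0.0236) and Sdha (-0.38 ± 0.11, adjusted p = 0.0407), lost in 9 and 11 of 16. In cytotoxic cells 0 were higher and 3 lower of 93, against 1.32% and 1.58%. Of 80 nuclear members there 0 were called. At an unadjusted p under 0.05, 3 of them were higher and 2 lower, against 421 and 533 of 6601 genes tested.

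Cluster 3 held the largest change of any nuclear member called within a cluster. Ndufaf8 had 32.7, 52.0 and 59.8 CPM there in KO mice and 18.3, 24.6 and 44.7 CPM in WT mice, with only KO mouse 6 and WT mouse 4 in the range of the other genotype (log2 fold change 0.90 ± 0.22, adjusted p = 0.00844). It stayed called in all 15 alternative fits that tested it, and was too low to be tested after thinning. Cluster 3 held 88 to 164 cells per WT mouse and 121 to 631 per KO mouse, so few UMIs of Ndufaf8 lie behind the WT values. Ndufv2, a subunit of the NADH-binding module, and Ndufa4 were lower in cluster 3 (-0.40 ± 0.12 and -0.40 ± 0.12, adjusted p = 0.0382 and 0.0455), lost in 10 and 12 of 16. Of 88 members tested there, 1 was thus called higher and 5 lower, against 3.09% and 5.33% of all genes tested.

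In Th17 cells 10 of 90 members were lower and 1 higher at an unadjusted p under 0.05, against 436 and 455 of 5558 genes tested. Called were 4 lower and 0 higher, against 2.57% and 2.52% of all genes tested there. The nuclear one was Ndufa4, with 70.6, 158.7 and 218.5 CPM in KO mice and 203.2, 233.5 and 251.4 CPM in WT mice, where KO mouse 6 reached the WT range (log2 fold change -0.51 ± 0.14, adjusted p = 0.0295). That call was lost in 5 of 16 alternative fits (adjusted p up to 0.116). In cycling cells 8 of 90 were lower and 1 higher at an unadjusted p under 0.05, against 445 and 426 of 5376 genes tested. There 4 were called lower and 0 higher, against 2.92% and 2.44%. The nuclear one was Cox5a, with 616.4, 710.2 and 826.1 CPM in KO mice and 784.6, 825.8 and 892.6 CPM in WT mice (log2 fold change -0.27 ± 0.07, adjusted p = 0.0252), a call lost in 8 of 16 alternative fits (adjusted p up to 0.216, without KO mice 1 and 2). In regulatory cells, where 5 KO and 3 WT mice had at least 20 cells, 0 of 74 members were called by edgeR. Of all genes tested there, 0.171% were called higher and 0.342% lower. At an unadjusted p under 0.05, 0 members were higher and 4 lower, against 98 and 101 of 1754 genes. mt-Co1 had 1464, 1796 and 2110 CPM there in KO mice and 1841, 2150 and 2256 CPM in WT mice (log2 fold change -0.21 ± 0.14, adjusted p = 0.611).

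Without KO mice 1 and 2, the count of members called lower was 3 in cluster 1, 1 in cytotoxic cells, 2 in cluster 3, 2 in Th17 cells and 2 in cycling cells. Of all genes tested in those fits, 2.09%, 0.929%, 3.55%, 1.88% and 1.76% were called lower. With thinned cells it was 3 in cluster 1, 1 in cytotoxic cells, 2 in cluster 3 and 1 in cycling cells, against 3.19%, 1.56%, 4.89% and 3.24% of all genes tested. Leaving out 1 mouse moved it by more than 1.5 times in cluster 1 (2 or 3 without KO mouse 1 or 2 or WT mouse 1 or 2), cytotoxic cells (1 without KO mouse 1, 2, 3 or 5 or WT mouse 1, 3, 4, 5 or 6), cluster 3 (2 or 3 without KO mouse 1, 2, 3 or 5 or WT mouse 1, 3, 5 or 6) and Th17 cells (2 without WT mouse 1). Over the fits without 1 mouse, the share of all genes tested called lower was 1.99% to 3.78% in cluster 1, 0.982% to 1.75% in cytotoxic cells, 4.14% to 6.14% in cluster 3 and 2.03% to 2.89% in Th17 cells.

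The genotype effect on members was not shown to differ between clusters. Of the members, 0 passed in cytotoxic cells, Th17 cells, cluster 1 or cluster 3 minus recirculating cells of the same mouse, by limma or by an edgeR interaction term, against 0.122%, 0.145%, 0.102% and 0.684% of all genes tested by limma. At an unadjusted p under 0.05, limma gave 2 members with a positive and 1 with a negative difference for cytotoxic cells, 0 and 3 for Th17 cells, 1 and 1 for cluster 1, and 4 and 2 for cluster 3. Over all genes tested the same counts were 243 and 379 of 6549, 251 and 279 of 5528, 302 and 208 of 5908, and 191 and 220 of 4237. For mt-Co1 the difference of log2 fold changes was -0.04 ± 0.05 for cytotoxic cells, -0.12 ± 0.05 for Th17 cells, -0.08 ± 0.05 for cluster 1 and 0.02 ± 0.05 for cluster 3 (limma, adjusted p = 0.818, 0.434, 0.734 and 0.929).

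Levels also differed between the clusters, which is a description only, because the clusters were drawn from the same cells and genes. Nuclear members took their largest share of UMIs in cycling cells and their smallest in cluster 3, in all 12 mice. The shares were 2.28% to 2.43% in cycling cells and 1.68% to 1.85% in cluster 3 of KO mice, and 2.29% to 2.37% and 1.63% to 1.76% in those of WT mice. Of 77 nuclear members with a mean of at least 20 CPM, 55 had their highest mean level in cycling cells when regulatory cells were set aside. Ndufc2, an accessory subunit of complex I, had a mean of 203 CPM in cycling cells and 83.9 CPM in cluster 3. Ndufs5, another, had means of 147 CPM in Th17 cells and 140 CPM in cycling cells. With regulatory cells again set aside, Ndufs5 was highest in Th17 cells in 7 of 12 mice. Median depths were 4787 and 5595 UMIs per cell in cycling cells of KO and WT mice and 2118 and 2324 in those of cluster 3. With cells thinned to 1500 UMIs the nuclear share was 2.26% to 2.40% in cycling cells and 1.67% to 1.83% in cluster 3 of KO mice, and 2.27% to 2.38% and 1.59% to 1.81% in those of WT mice.

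Mitochondrially encoded genes did not follow that order. Among the 6 largest clusters, their share was lowest in cycling cells in 10 of 12 mice and highest in recirculating cells in 6, and the ratio of mitochondrial to nuclear UMIs was lowest in cycling cells in 12 of 12 mice and highest in cluster 3 in 11. The spread between those 6 clusters was small, with means of mt-Co1 that differed by up to 1.16 times and those of mt-Nd3, the most variable, by up to 1.35 times. Regulatory cells had a mitochondrial share of 0.527% to 0.666% in KO mice and 0.625% to 0.735% in WT mice, the smallest of 7 clusters in all 8 mice that had enough of them. Their nuclear share was 1.80% to 2.22% in KO mice and 1.87% to 2.05% in WT mice.

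**Figure D5:**
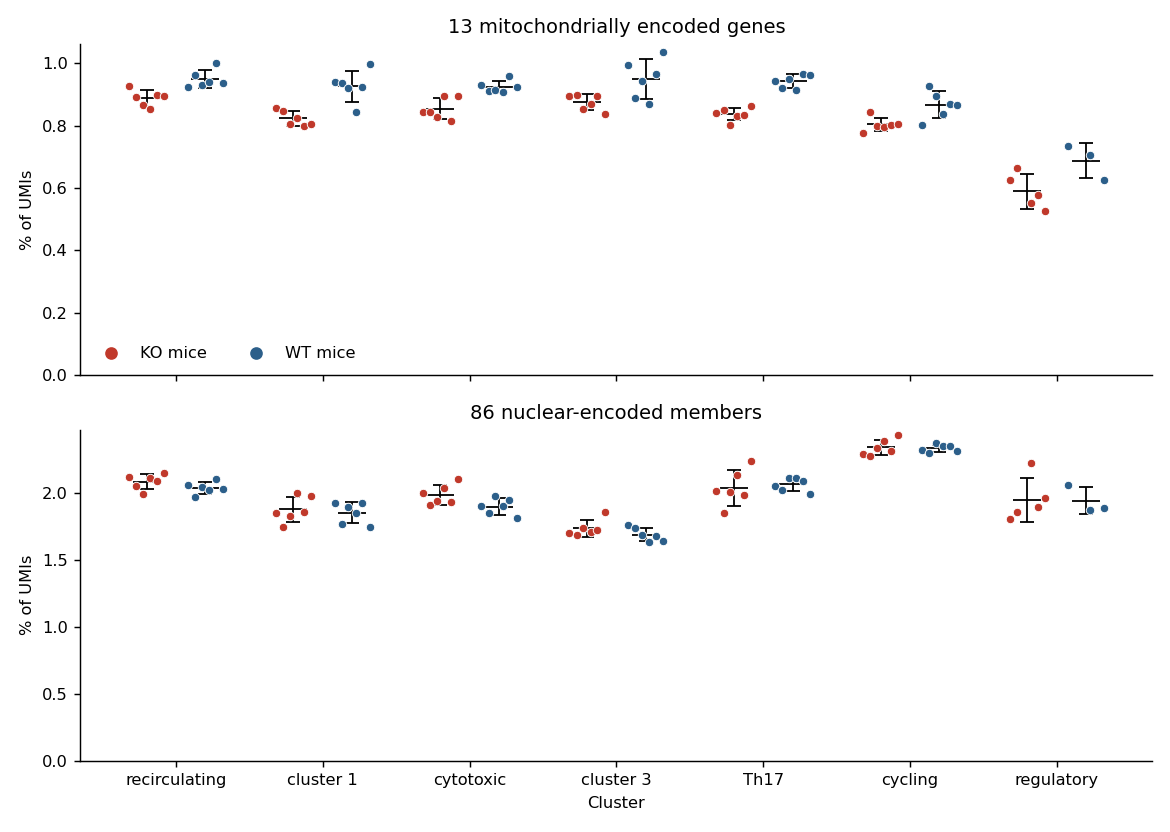
Share of UMIs taken by the 13 mitochondrially encoded genes and by the 86 nuclear-encoded members in each cluster, 1 point per mouse with at least 20 cells, KO mice left of WT mice. Cycling cells have the largest nuclear share and regulatory cells the smallest mitochondrial share in both genotypes.

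Genes that serve the same organelle were counted beside the members, and the counts over all cells stand against 7.04% of all genes tested called higher and 7.21% called lower. Counts at an unadjusted p under 0.05 stand against 1384 higher and 1378 lower of all 9861 genes tested. Of 16 genes of the tricarboxylic acid cycle, which feeds the chain with NADH and succinate, 0 were higher and 1 lower over all cells, and 1 and 2 had an unadjusted p under 0.05. The gene called was Idh3a, a subunit of NAD-dependent isocitrate dehydrogenase (101.8 ± 16.6 CPM in KO mice and 129.9 ± 5.99 CPM in WT mice, SD, n = 6 each; log2 fold change -0.39 ± 0.08, adjusted p = 0.00530). Of 12 genes for upkeep and transcription of mitochondrial DNA, 0 were called by edgeR and 2 had an unadjusted p under 0.05, both with values below 0. These were Tfam, which packs mitochondrial DNA and starts its transcription (log2 fold change -0.25 ± 0.12, adjusted p = 0.168), and Ssbp1, which binds it when single-stranded (-0.22 ± 0.10, adjusted p = 0.144). Of 9 regulators of mitochondrial biogenesis 0 were called by edgeR and 1 had an unadjusted p under 0.05, Gabpb1, a subunit of the GABP transcription factor (0.37 ± 0.13, adjusted p = 0.0668).

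Cytochrome c and further assembly factors gave 2 higher and 2 lower of 39 tested, against 7.04% and 7.21% of all genes tested. Their median log2 fold change was -0.07. At an unadjusted p under 0.05, 4 were higher and 7 lower, against 1384 and 1378 of all 9861 genes tested. Cox10, which farnesylates heme for complex IV, was lower (22.2 ± 3.48 CPM in KO mice and 36.0 ± 7.67 CPM in WT mice, SD, n = 6 each; log2 fold change -0.73 ± 0.13, adjusted p = 0.00164). Sdhaf4, an assembly factor of complex II, was lower (log2 fold change -0.43 ± 0.10, adjusted p = 0.00892). Usmg5, a small protein of ATP synthase that its symbol leaves out of the members, was higher (0.35 ± 0.09, adjusted p = 0.0119). Genes named as mitochondrial ribosomal proteins, whatever their function, gave 0 higher and 3 lower of 78, again against 7.04% and 7.21%. Their median log2 fold change was -0.05. At an unadjusted p under 0.05, 2 were higher and 12 lower, again against 1384 and 1378 of 9861. The 3 called were Mrps16 (-0.39 ± 0.10), Mrps36 (-0.33 ± 0.09) and Mrpl17 (-0.24 ± 0.07). Of 23 import genes and 10 antioxidant genes 0 were called by edgeR, and 2 and 1 had an unadjusted p under 0.05, all with values below 0.

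Promoters of the nuclear members were searched for 2 motifs of factors known to drive respiratory genes. From RefSeq (GRCm38.p6), 73 of 86 nuclear members had a promoter of 300 bases, 250 before the start and 50 after it. The motif GCGCATGCG of NRF1, on either strand, stood in 10 of these 73 (13.7%), in 4.36% of 9006 genes of the count table with a promoter and in 1.95% of all 27025 genes with one. The motif CCGGAAGT of ETS factors such as GABPA, on either strand, stood in 5 of the 73 (6.85%), in 9.96% of the 9006 and in 4.31% of the 27025. Neither motif contains the other. Of the called nuclear members with a promoter, only Uqcrh held a match, to the ETS motif on the opposite strand, in capitals in its promoter (chr4:116075021-116075320, minus strand, read in the direction of the gene).
Uqcrh: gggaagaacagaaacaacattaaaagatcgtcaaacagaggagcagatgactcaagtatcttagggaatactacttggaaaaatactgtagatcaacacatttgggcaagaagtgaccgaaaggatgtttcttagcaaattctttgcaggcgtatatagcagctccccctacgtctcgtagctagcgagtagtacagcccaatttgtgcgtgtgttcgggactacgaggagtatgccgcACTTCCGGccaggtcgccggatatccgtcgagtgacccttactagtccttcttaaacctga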

How the data were processed

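The authors deposited a table of raw UMI counts per gene and cell, and an annotation that names the mouse, genotype and cluster of each cell and the percent of its UMIs that are mitochondrial. Tools named per the submitters' processing notes are Cell Ranger (3.1.0) and Seurat (3.1.5), and the builds named are GRCm38 and mm10. No source used here states how cells were filtered, whether doublets were removed or how reads were assigned by strand, and no doublet caller was run. In all 18860 cells the counts added up to the deposited total, and the deposited percent was recomputed within rounding in 18839. Hashtags entered only through the assigned mouse. Recipients are the replicates, and since donors are not labelled, p-values measure the spread between recipients.

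For each mouse, and for each mouse and cluster of at least 20 cells, UMIs were added up and fitted with edgeR (4.0.16, R 4.3.3; TMM scaling, filterByExpr, quasi-likelihood test, two-sided). limma (3.58.1) compared effects between clusters on within-mouse differences, and DESeq2 (1.42.0) was an alternative. The fits were tested on simulated data. Shares have no test. Copies of mitochondrial genes were sought with BLAST+ (2.17.0).

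Members, lists, tests and alternatives were chosen with earlier results of these data known. Named genes were all mitochondrially encoded members, nuclear members called (in each cluster the 3 members with the smallest p among those called), the most abundant nuclear subunit of each complex, paralogues, and up to 3 genes per list. Nuclear members called in a cluster beyond those 3, Cox5b, Sdha over all cells, Ndufc2, Ndufs5 and Atp5o.1 were named after their values were seen.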

Additional observations from a re-analysis of the deposited data

Results flagged for a closer look

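In 108 sets of up to 6 mice, each a gene or a share in 1 genotype, 3 had a mouse whose gap to its nearest neighbour was a large part of the whole range; chance gives about 5% of sets. KO mouse 6 had 203.9 CPM of Ndufa4, with the next KO mouse at 169.6 CPM. KO mouse 1 had 202.2 CPM of mt-Nd4, with the next KO mouse at 190.1 CPM. The highest KO mouse had a nuclear share of 1.85% in cluster 3, with the next KO mouse at 1.74%.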

How the results depend on the processing

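No paired analysis was possible because the numbers of KO and WT mice are not shared labels. Without KO mice 1 and 2, nuclear members called over all cells were 1 lower and 0 higher, and members called lower were 3 in cluster 1, 1 in cytotoxic cells, 2 in cluster 3, 2 in Th17 cells and 2 in cycling cells. With cells thinned to 1500 UMIs, 0 nuclear members were called higher over all cells; members called were 3 lower and 1 higher in cluster 1, 1 lower in cytotoxic cells, 2 lower and 0 higher in cluster 3, and 1 lower in cycling cells. With the same cluster weights in every mouse 0 nuclear members were higher over all cells, against 4.45% of all genes tested, and without cycling cells 6 were lower. Without a filter on low counts 2 were lower in cluster 1 and 2 in cluster 3, and DESeq2's size factors left 1 in cytotoxic cells. Leaving out 1 mouse gave 1 to 12 nuclear members lower and 1 to 3 higher over all cells, while 5.51% to 9.36% of all genes were lower. Members lower were 3 to 5 in recirculating cells (higher 0 to 1), 2 to 5 in cluster 1 and 1 to 3 in cytotoxic cells. Of all genes tested, 2.65% to 3.48%, 1.99% to 3.78% and 0.982% to 1.75% were lower there. In cluster 3 and Th17 cells, 2 to 5 and 2 to 4 members were lower, against 4.14% to 6.14% and 2.03% to 2.89% of all genes. Shares for the fits without KO mice 1 and 2, and for calls lower within clusters with thinned cells, are in the Results. Where no share is given, a count cannot be read as a trait of the members. The cause was not tested. Among log2 fold changes that were not called, mt-Cytb turned to 0.0025 without a filter, 0.0077 with equal cells per mouse, 0.0030 without cycling cells and 0.012 without cells holding markers of other types, and ranged from -0.019 to 0.013 with 1 mouse left out. mt-Nd4l turned to -0.0078 with thinned cells and -0.053 without KO mice 1 and 2, and ranged from -0.021 to 0.034 with 1 mouse left out. Without KO mice 1 and 2, mt-Nd2 turned to -0.045, mt-Nd3 to -0.0072 and Sdhb to 0.013. With the same cluster weights in every mouse, mt-Nd4 turned to 0.0098 and Sdhb to 0.027. Some choices were made after seeing the data. These were the exclusion of marker-bearing cells, the shares with the same cluster weights in every mouse and the direction of mean CPM. The fits without KO mice 1 and 2 within clusters were another.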
